A study of Mus musculus with 24 samples.

Results

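The neurotrophins and their receptors were followed here as 5 genes chosen by name: the ligands Bdnf and Ntf3, the tyrosine kinase receptors Ntrk2 (TrkB) and Ntrk3 (TrkC), and Ngfr (p75NTR). They are 5 of the 37289 genes listed for the mouse striatum, and the rule that names them uses no measured value. RNA was sequenced from 12 female C57BL/6 mice, 3 in each of 4 groups, and every mouse gave 1 library. The groups were Cntnap2 heterozygous (het) mice stressed before birth, wild-type mice stressed before birth, het controls and wild-type controls. Cntnap2 encodes a neuronal adhesion protein, and the label of the het mice gives no more than heterozygosity at that gene. Prenatal stress was a varied schedule given to the dams for 7 days from embryonic day 12.5, and the dams bore embryos of both genotypes. All mice were handled alike after birth, with an ear tag at postnatal day 12 and weaning at day 18. The sources used here give no age at death. The tissue was a micropunch of the striatum, which can hold neighbouring tissue.

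Neurotrophins are secreted growth factors that are made as longer precursors and cut to their mature form. BDNF binds TrkB and neurotrophin-3 binds mainly TrkC, whereas p75NTR binds all neurotrophins and, with sortilin, their precursors. In the striatum most BDNF protein is known to arrive along axons from the cortex, where the RNA is made, while striatal cells make the receptor TrkB. Both Ntrk2 and Ntrk3 are known to give full-length receptors and truncated ones that lack the kinase domain.

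Libraries held 13587154 to 24039706 expected counts, the reads that RSEM assigns to a gene. All het libraries (21410135 to 24039706) were deeper than all wild-type libraries (13587154 to 18538304), so depth goes with genotype. Cntnap2 itself averaged 46.4 ± 7.78 TPM over the 6 het mice, and 48.2 ± 11.3 TPM over the 6 wild-type mice (SD). TPM is the level per transcript length, scaled to the library. In the library labelled wild-type stressed replicate 2, Xist, which females express from the inactive X chromosome, was at 1.32 TPM, against 23.1 to 109 TPM in the other 11 libraries, which goes against the label female. The RNA data of het control replicate 1 carry another animal number than the label. Spiny neuron markers, which define the striatum, summed to 3850 to 8730 TPM with all 10 of 10 found, and the tissue label held in every library. For the genes tested, some values without one of these libraries are given beside the results.

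The 5 genes kept nearly the same order of level in every library. Ntrk2 was above Ntrk3 in 12 of 12 libraries, with a ratio of TPM between 4.13 and 5.07 (median 4.43). Ntrk3 was above Ngfr in 12 of 12 (ratio 2.07 to 15.0), and Bdnf was above Ntf3 in 12 of 12 (ratio 1.13 to 23.4). Ngfr was above Bdnf in 11 of 12 libraries, the exception being het control replicate 1 with a ratio of 0.562. Over all libraries Ntrk2 averaged 71.5 ± 24.8 TPM, Ntrk3 15.6 ± 4.95 TPM, Ngfr 3.52 ± 2.37 TPM, Bdnf 1.23 ± 0.778 TPM and Ntf3 0.196 ± 0.129 TPM (SD, n = 12). The spread differed between genes, with a highest to lowest level of 3.73 times for Ntrk2, 3.3 times for Ntrk3, 8.41 times for Bdnf and 9.09 times for Ngfr.

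**Figure D1:**
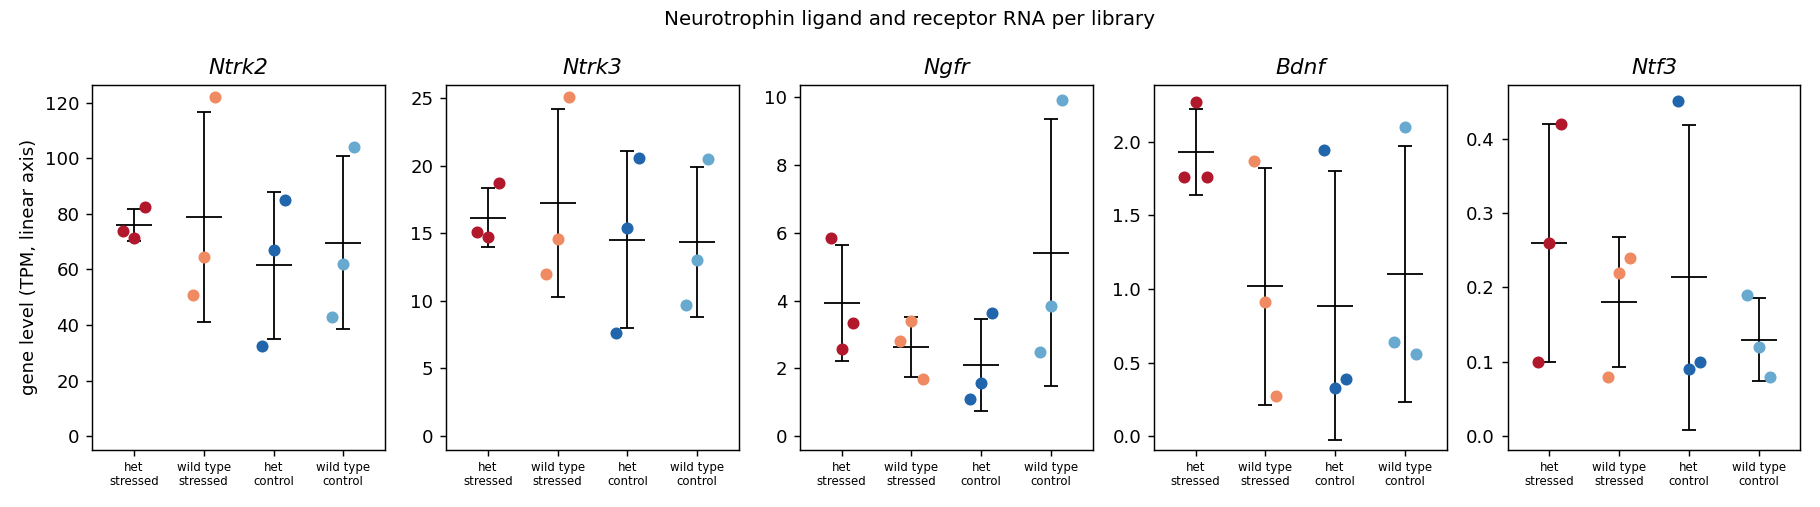
Gene level in TPM (linear vertical axes, a separate scale for each gene) of the 5 genes in each library, by group. Points are mice, and the bars are the mean and SD of 3 mice; the groups overlap for every gene, and Ntrk2 in wild-type stressed mice spans 50.7 to 122 TPM, against 71.4 to 82.4 TPM in het stressed mice.

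Bdnf, the ligand of TrkB, was low in striatum and varied widely between mice of the same group. Its level in het stressed mice was 1.76, 2.27 and 1.76 TPM, and in wild-type stressed mice it was 1.87, 0.91 and 0.27 TPM. In het controls it was 1.94, 0.33 and 0.39 TPM, and in wild-type controls it was 0.64, 2.1 and 0.56 TPM. All 3 het stressed mice were high, while each of the other groups held at least 1 mouse at or above 1.87 TPM and at least 1 at or below 0.56 TPM. The group means were 1.93 ± 0.294, 1.02 ± 0.805, 0.887 ± 0.913 and 1.1 ± 0.867 TPM in het stressed, wild-type stressed, het control and wild-type control mice (SD, n = 3 each), and the groups overlapped in each comparison made.

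Bdnf levels moved with markers of cortical excitatory neurons, a cell type outside the striatum. The markers were 10 genes, all 10 found and none listed at 0, and their summed level was 146 to 199 TPM in het stressed, 26.6 to 184 TPM in wild-type stressed, 24.9 to 124 TPM in het control and 51.3 to 189 TPM in wild-type control mice. The 5 libraries with the lowest marker sums, 24.9 to 67.4 TPM, were the 5 with the lowest Bdnf, 0.27 to 0.64 TPM. These were replicate 3 of the wild-type stressed mice, replicates 2 and 3 of the het controls and replicates 1 and 3 of the wild-type controls. The other 7 libraries had marker sums of 124 to 199 TPM and Bdnf of 0.91 to 2.27 TPM, and they include all 3 het stressed mice. Slc17a7, the vesicular glutamate transporter of cortical projection neurons, was at 9.47 to 36.8 TPM in the 5 low libraries and at 70.2 to 135 TPM in the other 7. In all, 6 of the 10 markers separated the same libraries without overlap (Slc17a7, Neurod6, Neurod2, Tbr1, Fezf2 and Emx1). The part of cortical RNA in the Bdnf values was not tested. In bulk tissue, fewer cells of a type and less RNA per cell cannot be told apart.

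Between groups, no difference in Bdnf passed the test. The log2 fold change for stress in het mice was 0.64 ± 0.88 (SE), with a 95% interval of -1.30 to 2.58, and for genotype in stressed mice it was 0.74 ± 0.90 (-1.24 to 2.72). Genotype in controls gave 0.00034 ± 0.93 (-2.05 to 2.05), and stress in wild-type mice gave -0.10 ± 0.91 (-2.11 to 1.92). These intervals take in changes of more than 2-fold either way, so a change of that size was not detectable with this spread. The value for controls rested on single mice: the log2 fold change of het over wild-type controls was -1.74 without het control replicate 1 and 0.88 without wild-type control replicate 2. For stress in het mice it was 2.38 without het control replicate 1, and the interaction of genotype and stress, 0.74 ± 1.27 with all mice, was then 2.48. None of these passed the edgeR test (lowest adjusted p 0.94). Because het control replicate 1 is also the library whose animal number is in doubt, the direction of Bdnf between control genotypes is unsettled here. A pair of other fits did call Bdnf. limma-voom with sample weights gave -2.44 for genotype in controls (adjusted p = 0.0282), in a comparison where it called 988 genes. The edgeR fit with the length slope as covariate (how far a library's expression rises with gene length) and without replicate 1 of both control groups gave -1.79 there (adjusted p = 0.0381), 2.15 for stress in het mice (adjusted p = 0.0226) and 2.93 for the interaction (adjusted p = 0.0214). It called 194, 38 and 71 of 16040 genes in these comparisons, where the edgeR fit of all 12 libraries without the slope called 1, 0 and 0. That fit keeps 2 controls of each genotype and leaves out the 2 libraries of lowest length slope. With the slope and all 12 libraries, edgeR gave Bdnf 1.78 ± 0.65 for stress in het mice (95% interval 0.3 to 3.25). It was not called there (unadjusted p = 0.0231, adjusted p = 0.971).

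The Bdnf reads were spread over several transcripts. Of 10 annotated transcripts, 3 were listed at 0 in every library, none was above 0 in all 12, and none averaged 0.5 TPM. The leading one, ENSMUST00000111050.2 of 3964 nt, averaged 0.451 TPM and held between 0 and 100% of the gene's TPM, so which Bdnf transcript leads could not be settled at 11 to 169 counts per library. Its share was 28.3 ± 16.3% in het mice and 34.0 ± 37.7% in wild-type mice (SD, n = 6 each), and the two-sided exact permutation test gave p = 0.775 (0.930 when adjusted over 6 share tests). Of the 4 transcripts tested, ENSMUST00000111051.2 of 4124 nt had the lowest unadjusted p, and its genotypes overlapped. It was above 0 in 5 of 6 het libraries, with 95.4 expected counts in all, and in 1 of 6 wild-type libraries, with 4.95. In het stressed mice it had 0.21, 0.38 and 0.49 TPM, and in het controls 0.28, 0.08 and 0 TPM. Wild-type stressed replicate 1 had 0.11 TPM, and the other wild-type libraries were listed at 0. With edgeR on transcript counts its genotype difference had an unadjusted p of 0.0181 and an adjusted p of 1.0. The split of reads between such overlapping transcripts is RSEM's estimate, and the het libraries are the deeper ones.

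Bdnf is transcribed from several start sites, and CREB, a factor that activates it in neurons, binds the half-site TGACG. The RefSeq windows of 250 bases before the start (GRCm38.p6) hold 7 for Bdnf, and TGACG or its reverse complement CGTCA lay in 1 of them, and in 1 of 11 windows over the 4 genes of the set that have one. The half-site is in 17.8% of all 32851 such windows. The Bdnf window that holds it is shown because it is the one match in the set. It lies at chr2:109692186-109692435 on the plus strand and ends just before the start, with the CGTCA in capitals beginning 35 bases before the start.
Bdnf window: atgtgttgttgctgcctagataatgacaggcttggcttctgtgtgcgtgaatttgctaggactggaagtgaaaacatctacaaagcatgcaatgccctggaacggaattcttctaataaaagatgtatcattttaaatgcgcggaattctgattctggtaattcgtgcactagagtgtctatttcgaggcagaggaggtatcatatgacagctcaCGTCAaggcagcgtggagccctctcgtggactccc
The match is a description of letters, and the files do not link this window to any of the deposited transcripts. Creb1, which encodes CREB, was at 8.63 TPM on average (3.68 to 18.5 TPM), and its log2 fold change was 0.12 ± 0.32 for stress in het mice and 0.17 ± 0.32 for stress in wild-type mice.

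Ntf3, the ligand of TrkC, was close to the limit of detection. It was at 0.1, 0.26 and 0.42 TPM in het stressed mice, 0.08, 0.22 and 0.24 TPM in wild-type stressed mice, 0.45, 0.09 and 0.1 TPM in het controls and 0.19, 0.12 and 0.08 TPM in wild-type controls. No group stood apart. The libraries held between 1 and 13 counts of it, with sums of 14, 8, 17 and 7 counts in the same order of groups. Ntf3 did not pass the filter on low counts. With no filter, edgeR gave a log2 fold change of 0.66 ± 0.62 for the genotype average (adjusted p = 0.99996) and -0.01 ± 0.79 for the stress average (adjusted p = 0.9999). In log2(TPM + 1), het mice were 0.09 above wild-type mice (two-sided exact permutation p = 0.299, n = 6 each), and stressed mice were 0.06 above controls (exact permutation p = 0.517). Over the 10 such tests, 5 genes by genotype and stress, adjusted p-values were 0.739 to 0.972.

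Ntrk2, which encodes TrkB, was the most abundant of the set, and its groups overlapped. Levels were 73.8, 71.4 and 82.4 TPM in het stressed mice, 50.7, 64.4 and 122 TPM in wild-type stressed mice, 32.6, 67 and 84.9 TPM in het controls and 42.9, 62.1 and 104 TPM in wild-type controls. The lowest level was in het control replicate 1 and the highest in wild-type stressed replicate 3, while the het stressed mice lay close together. The group means were 75.9 ± 5.8, 78.9 ± 37.6, 61.5 ± 26.6 and 69.6 ± 31.2 TPM in the same order (SD, n = 3 each). The log2 fold change averaged over conditions was -0.12 ± 0.19 for genotype (95% interval -0.54 to 0.31), and averaged over genotypes it was 0.14 ± 0.19 for stress (-0.29 to 0.56). Without het control replicate 1 these were -0.02 and 0.04, and genotype in controls was 0.09, against -0.11 with all libraries. Without wild-type stressed replicate 2 the averages were -0.14 and 0.16.

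Ntrk3, which encodes TrkC, varied in step with Ntrk2. It was at 15.1, 14.7 and 18.7 TPM in het stressed mice, 12.0, 14.6 and 25.1 TPM in wild-type stressed mice, 7.61, 15.4 and 20.6 TPM in het controls and 9.66, 13 and 20.5 TPM in wild-type controls. The same libraries were lowest and highest as for Ntrk2. Its log2 fold change was -0.06 ± 0.17 for genotype (95% interval -0.42 to 0.31) and 0.12 ± 0.17 for stress (-0.25 to 0.48). Without het control replicate 1 these were 0.03 and 0.02, and genotype in controls was 0.26, against 0.07 with all libraries. Without wild-type stressed replicate 2 the averages were -0.07 and 0.14. Across the 12 libraries, log2 CPM of both receptors had a Pearson r of 0.953, given as a description. The libraries differ in depth and composition for all genes. Ntrk2 stood at rank 18 of all genes tested for likeness to Ntrk3, and Ntrk3 at rank 290 for likeness to Ntrk2.

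The level of both receptors followed a property of the whole library, the length slope. It is the slope, over all genes tested, of a gene's deviation in log2 CPM from its mean over libraries on its log2 effective length, so a negative slope means that long genes read low in that library. The slope was lowest in het control replicate 1 (-0.336), wild-type control replicate 1 (-0.271) and wild-type stressed replicate 1 (-0.0766), and these libraries had the 3 lowest levels of both Ntrk2 and Ntrk3. It was highest in replicate 3 of the wild-type stressed mice (0.268) and replicate 3 of the wild-type controls (0.254), which had the 2 highest Ntrk2 levels. The het stressed libraries had slopes of 0.000639 to 0.0718. Slope and receptor levels also ran with replicate number. Within every group, replicate 3 had the highest slope and the highest Ntrk2 and Ntrk3. Replicate 1 had the lowest of each, except in het stressed mice, where replicate 2 did. What links replicate number and slope was not tested. Ntrk2 is a long gene by this measure, with a mean effective length of 7398 nt, and Ntrk3 has 2421 nt. Bdnf (3939 nt) and Ngfr (3346 nt) are longer than Ntrk3. Bdnf was at 1.94 TPM in the library of lowest slope and at 0.27 TPM in that of highest slope. Ngfr was at 1.09 and 1.68 TPM in the same libraries. In wild-type control replicate 1, of second lowest slope, Bdnf was at 0.64 TPM and Ngfr at 2.5 TPM. The part of gene length in these levels was not tested. With the slope as a covariate in edgeR, the SE of the Ntrk2 genotype average was 0.06, and its log2 fold change was -0.07 (95% interval -0.19 to 0.06). For stress averaged over genotypes it was 0.01 ± 0.06 (-0.12 to 0.14), and for stress in het mice it was -0.01 ± 0.08 (-0.19 to 0.17). Ntrk3 then had -0.03 ± 0.06 for genotype (-0.17 to 0.11) and 0.01 ± 0.07 for stress (-0.13 to 0.16). Its interaction was -0.29 ± 0.13 (-0.56 to -0.01, unadjusted p = 0.0422, adjusted p = 0.800). Of the 32 member values in that edgeR fit, 2 had an unadjusted p under 0.05: this one and Bdnf for stress in het mice.

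**Figure D2:**
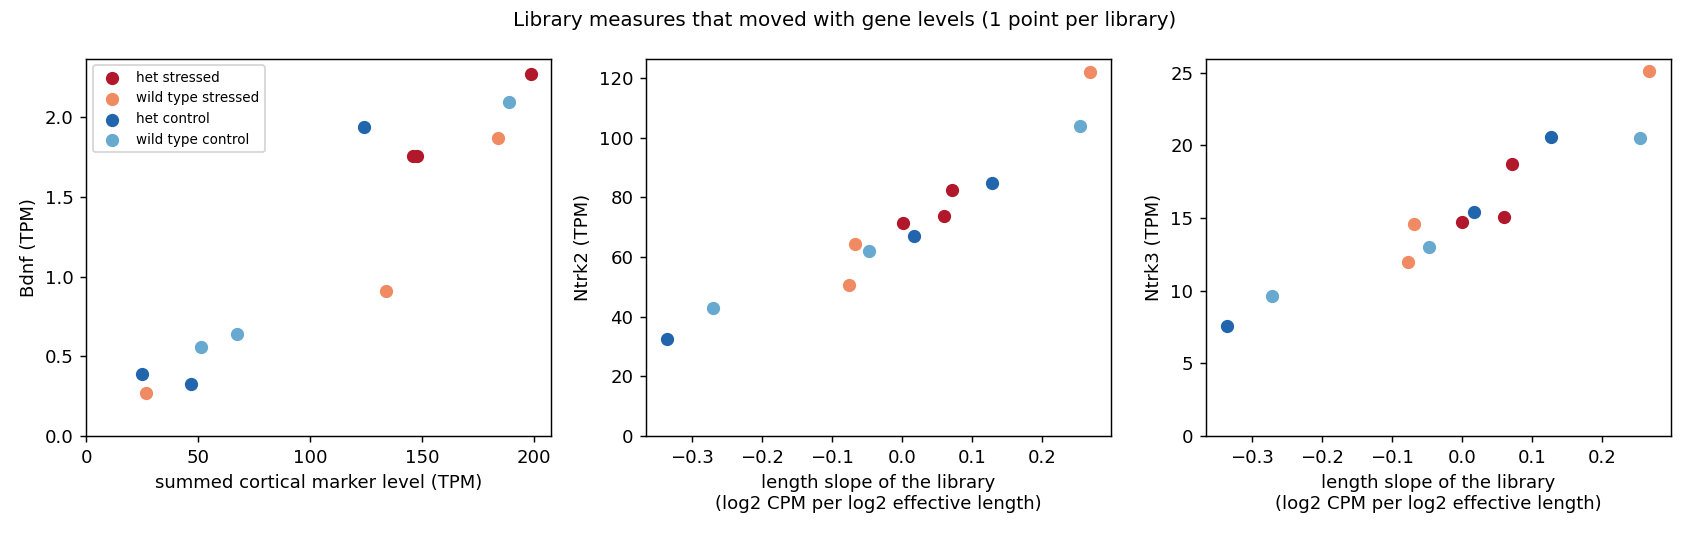
Left, Bdnf (TPM) against the summed level of 10 cortical excitatory neuron markers (TPM); centre and right, Ntrk2 and Ntrk3 (TPM) against the length slope of the library. Each point is 1 library, coloured by group; 5 libraries with marker sums of 24.9 to 67.4 TPM lie apart at Bdnf of 0.27 to 0.64 TPM, and het control replicate 1 is lowest in slope and in both receptors.

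Most of the TPM of each Trk receptor came from a pair of transcripts, of which the same one led in all 12 libraries. For Ntrk2, ENSMUST00000109838.2 of 7002 nt averaged 45.8 TPM and held 57.8 to 71.5% of the gene's TPM. ENSMUST00000079828.5 of 8541 nt averaged 25.3 TPM and held 28.1 to 41.8%. The sources used here do not say which of these encodes the truncated receptor, so they are given by length. The share of the 7002-nt transcript was 65.7 ± 2.08% in het stressed, 65.4 ± 6.99% in wild-type stressed, 63.6 ± 1.61% in het control and 64.1 ± 2.35% in wild-type control mice (SD, n = 3 each). It was 64.6 ± 2.02% in het mice and 64.7 ± 4.72% in wild-type mice (two-sided exact permutation p = 0.959, n = 6 each). Stressed mice had 65.5 ± 4.61% and controls 63.8 ± 1.82% (exact permutation p = 0.426). The lowest share, 57.8%, was in wild-type stressed replicate 3, the library of highest slope, and the highest, 71.5%, in wild-type stressed replicate 2, the library with low Xist. Without replicate 3 of that group the stress difference was 3.26 percentage points, with an unadjusted exact permutation p of 0.0455 and 5 stressed mice left. Without replicate 2 of that group it was 0.519 percentage points, against 1.71 with all mice. A minor transcript, ENSMUST00000078541.6 of 2719 nt, reached 1.95 TPM and 5.98% in het control replicate 1 and was at most 0.77% in the other libraries.

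For Ntrk3, ENSMUST00000039438.7 of 2337 nt averaged 12.5 TPM and held 74.0 to 86.7% of the gene's TPM, and ENSMUST00000039431.7 of 3300 nt averaged 3.07 TPM and held 12.8 to 26.0%. Here too the shorter transcript led in every library. Its share was 80.7 ± 3.39% in het stressed, 77.7 ± 3.78% in wild-type stressed, 83.2 ± 3.18% in het control and 81.8 ± 4.35% in wild-type control mice (SD, n = 3 each). The share was 79.2 ± 3.6% in stressed mice and 82.5 ± 3.5% in controls (exact permutation p = 0.147, n = 6 each), and 81.9 ± 3.25% in het mice and 79.7 ± 4.28% in wild-type mice (p = 0.329 by the same exact test). Adjusted over the 6 share tests, each p was 0.852 or more. The highest share, 86.7%, was in the replicates 1 of both control groups, the libraries of lowest slope, and the lowest, 74.0%, in wild-type stressed replicate 3, which had the highest.

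**Figure D3:**
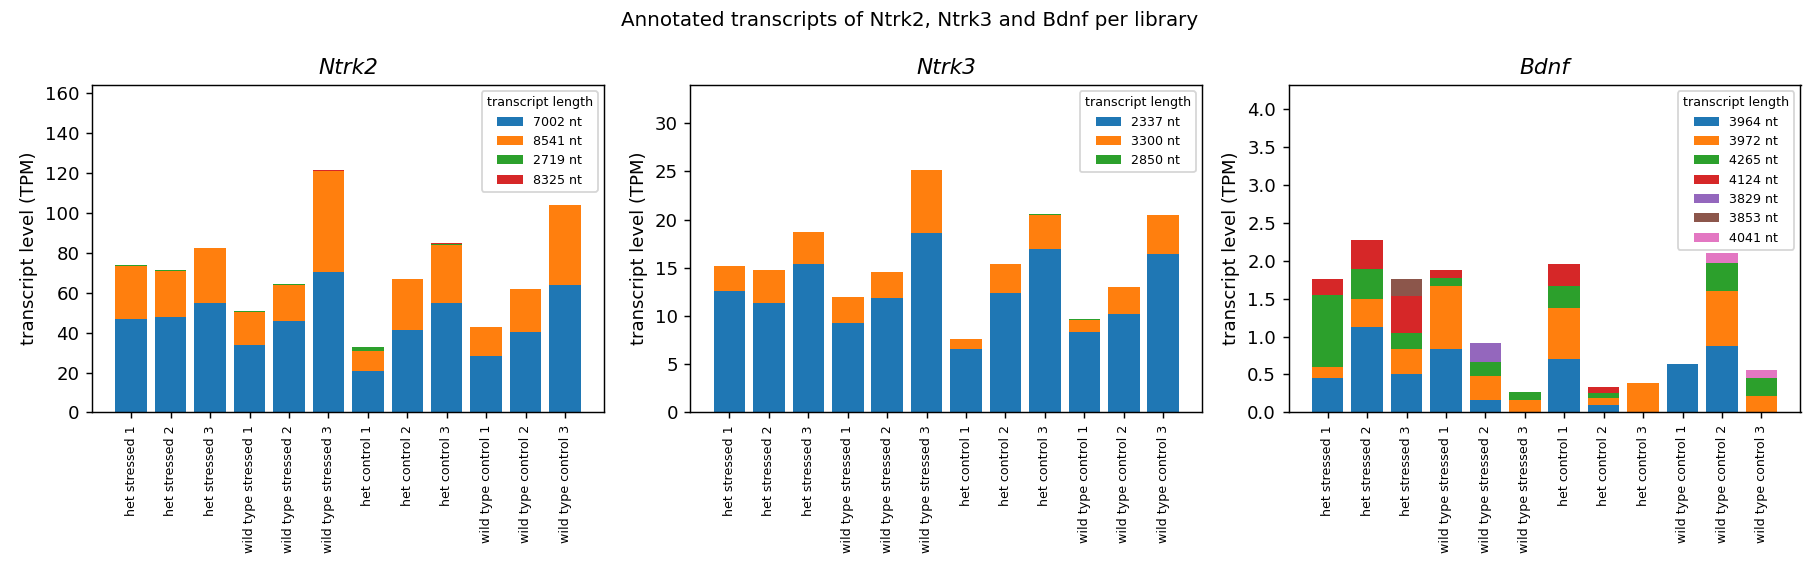
Transcript level in TPM (stacked bars from 0, a separate scale for each gene) of Ntrk2, Ntrk3 and Bdnf in each library, het stressed at the left and wild-type control at the right of each panel. Colours are annotated transcripts by length in nt; the 7002-nt transcript of Ntrk2 and the 2337-nt transcript of Ntrk3 lead in all 12 libraries, while no Bdnf transcript does.

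Over all member transcripts, 10 of the 37796 transcripts tested belonged to the 5 genes, and edgeR called 0 of their 80 values over 8 comparisons, with 4 at an unadjusted p under 0.05, 3 of the Bdnf transcript ENSMUST00000111051.2 and 1 of the Ngfr transcript. Of all transcripts, the share under 0.05 was 2.06% for genotype in controls, 1.66% for genotype in stressed mice, 3.64% for stress in wild-type mice and 1.84% for stress in het mice. It was 2% for het stressed against wild-type control mice, 2.13% for the interaction, 1.94% for the genotype average and 3.79% for the stress average. Of all transcripts tested, 0.00265% were called for genotype in controls, for stress in het mice and for the stress average, and 0% in the other 5 comparisons.

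Ngfr, which encodes p75NTR, had the widest spread among the receptors and the lowest unadjusted p in the set. Its level was 5.85, 2.58 and 3.35 TPM in het stressed mice and 2.81, 3.41 and 1.68 TPM in wild-type stressed mice. In het controls it was 1.09, 1.56 and 3.65 TPM, and in wild-type controls it was 2.5, 3.84 and 9.91 TPM. Wild-type control replicate 3 stood highest and het control replicate 1 lowest, and the groups overlapped. The group means were 3.93 ± 1.71, 2.63 ± 0.878, 2.1 ± 1.36 and 5.42 ± 3.95 TPM in het stressed, wild-type stressed, het control and wild-type control mice (SD, n = 3 each).

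Between genotypes in controls, the log2 fold change of Ngfr was -1.25 ± 0.51 (95% interval -2.37 to -0.13), and in stressed mice it was 0.41 ± 0.50 (-0.70 to 1.52). Stress gave 0.75 ± 0.50 in het mice (-0.36 to 1.86) and -0.91 ± 0.50 in wild-type mice (-2.02 to 0.21). The interaction, which tests whether the stress difference is the same in both genotypes, was 1.66 ± 0.71 (0.08 to 3.23). With edgeR, the control genotype value had an unadjusted p of 0.0315 and the interaction one of 0.0407, and both missed the threshold after adjustment (adjusted p = 0.99999 and 0.99997). Leaving out wild-type control replicate 3 moved both most toward 0: the control genotype value was then -0.72, the stress value in wild-type mice -0.38 and the interaction 1.11. Of 12 fits that each left out 1 library, the control genotype value had an unadjusted p under 0.05 in 9 and the interaction in 6. The control genotype value missed it in that fit and when replicate 1 or 2 of the het controls was absent (-1.06 in each). The interaction missed it in those 3 fits (1.46 with either het control absent) and without het stressed replicate 1 (1.20), wild-type stressed replicate 1 (1.75) or wild-type stressed replicate 3 (1.32). Without wild-type stressed replicate 2, the library with low Xist, the interaction was 1.96 and the genotype value in stressed mice 0.71.

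Thalamus markers, which mark neighbouring tissue, stood out in the same library. Wild-type control replicate 3 had a thalamus marker sum of 134 TPM, against 26.1 to 51.7 TPM in the other 11 libraries, with all 7 markers of that list found, 1 of them at 0 in at least 1 library. Cholinergic neurons of the basal forebrain, which borders the striatum, are known for p75NTR. The striatum holds cholinergic neurons of its own, and the marker list used does not tell these apart. A high cholinergic sum thus cannot be read as neighbouring tissue. The cholinergic marker sum, over 4 of 6 listed genes that were found, was also highest in that library (52 TPM) and lowest in het control replicate 1 (19.0 TPM), the libraries of highest and lowest Ngfr. In between the order differed: het stressed replicate 1, second in Ngfr at 5.85 TPM, had a cholinergic sum of 38.6 TPM, and wild-type stressed replicate 3, with 44.8 TPM, had 1.68 TPM of Ngfr. The match at the ends was not particular to the cholinergic list. The same libraries were highest and lowest in the sums for oligodendrocytes (13700 and 5240 TPM), their precursors (194 and 57.5 TPM), microglia (119 and 61.6 TPM) and thalamus (134 and 26.1 TPM). The other lists had another library at 1 end or both. By group, the cholinergic sum was 33.3 to 41 TPM in het stressed, 28.2 to 44.8 TPM in wild-type stressed, 19.0 to 42.8 TPM in het control and 27.4 to 52 TPM in wild-type control mice, and the thalamus sum was 30.9 to 45.2, 27.1 to 34.4, 26.1 to 32.3 and 44.7 to 134 TPM. The part of either in the Ngfr values was not tested.

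In total, edgeR called 0 of the 32 values of the 4 genes tested over 8 comparisons, and 2 of 32, both of Ngfr, had an unadjusted p under 0.05. DESeq2 called 0, with 2 under 0.05 unadjusted. The lowest adjusted p with edgeR was 0.975. Among all 15955 genes tested, edgeR called 0.00627% for genotype in controls, for genotype in stressed mice, for het stressed against wild-type control mice and for the genotype average, and 0% for the other 4 comparisons. The share of all genes with an unadjusted p under 0.05 was 1.47% for genotype in controls, 0.57% for genotype in stressed mice, 2.49% for stress in wild-type mice and 1.12% for stress in het mice. It was 1.28% for het stressed against wild-type control mice, 1.33% for the interaction, 0.708% for the genotype average and 2.34% for the stress average. In 0 of 28 cases, 4 genes by 7 differences between groups, did the log2 CPM of the groups not overlap. Over all genes, groups of 3 did not overlap in the higher direction for 1.44% (genotype in controls), 3.08% (genotype in stressed mice), 2.61% (stress in wild-type mice), 3.97% (stress in het mice) and 3.64% (het stressed against wild-type control). In the lower direction the shares were 1.95%, 2.11%, 3.17%, 2.71% and 2.66% in the same order. For 6 against 6 mice the shares were 0.0439% higher and 0.0313% lower by genotype, and 0.0815% higher and 0.094% lower by stress. Het stressed mice, which carry both factors, differed from wild-type controls, which carry neither, by log2 fold changes of 0.64 ± 0.89 for Bdnf, 0.02 ± 0.27 for Ntrk2, 0.06 ± 0.23 for Ntrk3 and -0.50 ± 0.50 for Ngfr.

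**Figure D4:**
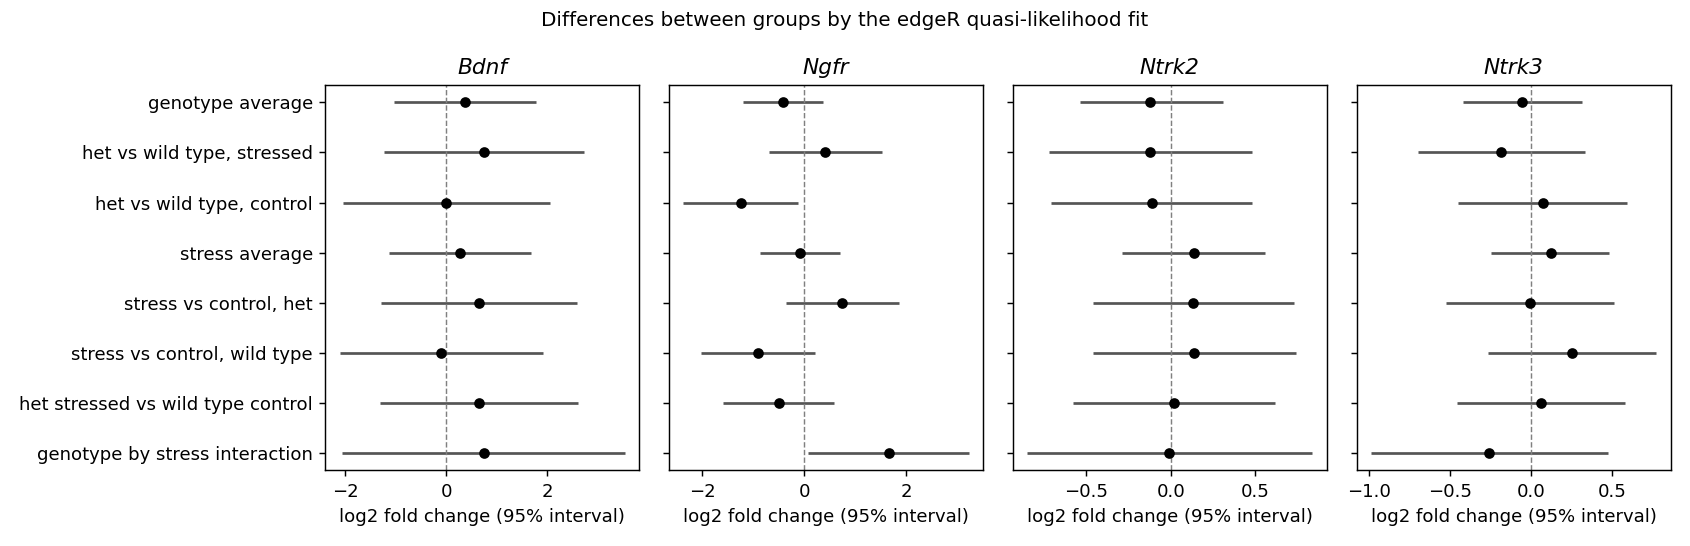
Log2 fold change (points) with its 95% interval (lines) from edgeR for Bdnf, Ngfr, Ntrk2 and Ntrk3, for 8 comparisons named by their first group over their second; horizontal scales differ between genes. Intervals of Bdnf reach from -2.06 to 3.54 for the interaction, and the intervals of Ngfr that leave out 0 are those for genotype in controls and for the interaction, neither called after adjustment.

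The other genes of the pathway did not pass the test either. Of 66 listed genes, 63 were tested, and edgeR called 0 of 63 in each of the 8 comparisons, against the shares of all genes given above. Of the 504 values, 1 had an unadjusted p under 0.05 with edgeR, and 4 did with DESeq2, which also called 0. The edgeR value was Mef2c, an activity-regulated transcription factor, with a log2 fold change of 0.52 ± 0.22 for stress in het mice (95% interval 0.04 to 1.01; unadjusted p = 0.0377, adjusted p = 0.99995) and 0.32 ± 0.16 for the stress average. The count under 0.05 depended on the fit. It was 1 with RLE size factors, 35 with the length slope as covariate (0 called) and 84 with limma-voom (5 called). With the slope and without replicate 1 of both control groups it was 100 (5 called). In the stress comparisons more listed genes were positive than negative: 45 of 63 in wild-type mice (median log2 fold change 0.07), 43 of 63 in het mice (median 0.07) and 45 of 63 in the average (median 0.07). Over all genes tested, 48.8%, 50.5% and 49.9% were positive, with medians of -0.0058, 0.0026 and -0.00049. In het stressed against wild-type control mice, which share libraries with those comparisons, 46 of 63 were positive (median 0.07; 49.3% of all genes). The 2 lowest length slopes were both in control libraries (-0.336 and -0.271), and the highest were in a stressed (0.268) and a control library (0.254). The part of the slope in these signs was not tested. By genotype, 29 of 63 were positive in controls (median -0.01; 50.7% of all genes), 30 of 63 in stressed mice (median -0.01; 48.8%) and 32 of 63 in the average (median 0.01; 50.3%), and with RLE size factors the last median was -0.0018. For the interaction 31 of 63 were positive (median -0.00094; 48.2% of all genes).

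By role, the further ligand Ntf5, which encodes neurotrophin-4, was close to the limit of detection at 0.055 TPM on average (0 to 0.24 TPM). The sorting receptor Sort1, the sortilin that joins p75NTR in binding precursors, averaged 64.5 TPM (20.8 to 110 TPM). Among the partners of p75NTR, Bex3, known as a p75-associated factor, averaged 419 TPM, and Lingo1, a co-receptor in the Nogo receptor complex, had a log2 fold change of 0.27 ± 0.17 for stress in wild-type mice and 0.24 ± 0.12 for the stress average. Among the genes for processing and release, Pcsk5, a proprotein convertase, had 0.57 ± 0.31 for stress in het mice and 0.62 ± 0.31 for het stressed against wild-type control mice. Pcsk1, a convertase of the regulated secretory pathway, had 0.33 ± 0.25 and Plat, the tissue plasminogen activator, 0.27 ± 0.20 for genotype in stressed mice. Plg and Mmp3, which encode proteases that cut neurotrophin precursors, did not pass the filter on low counts, nor did Ntf5.

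Downstream of the Trk receptors, 32 adaptors and effectors were tested, and edgeR called 0 of their 256 values, with 0 at an unadjusted p under 0.05. Their log2 fold changes ran between -0.55 and 0.57, with a median size of 0.09, and both ends were Shc3, a neuronal Shc adaptor, with -0.55 ± 0.80 for the interaction and 0.57 ± 0.57 for stress in wild-type mice. Shc2, an adaptor that binds activated Trk receptors, had a log2 fold change of 0.24 ± 0.12 for stress in wild-type mice and -0.26 ± 0.17 for the interaction. Akt2, a kinase downstream of PI3 kinase, had 0.20 ± 0.13 for genotype in controls and 0.14 ± 0.09 for the genotype average. The unadjusted p-values of Shc2 and Akt2 were 0.0735 to 0.158.

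The genes most like each member in log2 CPM over the 12 libraries, by Pearson r and as a description, differed between members. For Bdnf they were Sstr2 (r = 0.984), a somatostatin receptor, Tfap2d (0.975), a transcription factor of the AP-2 family, and Nicn1 (0.959). For Ntrk2 they included Eif4enif1 (0.982) and Plce1 (0.981), a phospholipase C. For Ntrk3 they were Ppp1r13b (0.966), Slc26a2 (0.963), a sulfate transporter, and Nsd3 (0.961), a histone methyltransferase. For Ngfr they were Adarb2 (0.943), of the RNA-editing enzyme family, Vamp1 (0.937), a synaptic vesicle protein, and Kcnc2 (0.924), a potassium channel. Bdnf had r of -0.681 with Ntrk2 and -0.732 with Ntrk3, and Ngfr had 0.138 with Bdnf, 0.196 with Ntrk2 and 0.059 with Ntrk3.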

How the data were processed

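RNA was read from 12 libraries, 1 per mouse. Per the file headers, the deposited tables give for each gene and transcript the expected count, the TPM and the length and effective length, and per the submitters' processing notes they were made with RSEM and Bowtie against mm9 (NCBIM37); tool versions and strand use are not stated there. Reads of overlapping or antisense genes cannot be told apart. The authors' 5hmC tables were not analysed here.

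Expected counts were rounded. Genes passing filterByExpr were scaled by TMM, and a model was fitted over all 12 libraries and 4 group means with edgeR 4.0.16 (quasi-likelihood, robust) in R 4.3.3. P-values were two-sided, adjusted by Benjamini-Hochberg over all genes or transcripts tested and called at 0.05. SEs are the log2 fold change over the root of F. The biological coefficient of variation was 0.256. limma 3.58.1 and DESeq2 1.42.0 were alternatives, with other scaling, filters, blocks, covariates and left-out libraries. TPM was compared as log2(TPM + 1) and transcript shares as percent, by exact permutation over 924 splits of 6 against 6 (smallest p 0.00216; 3 against 3 cannot go below 0.1). The fitting code was run on simulated counts in which libraries differed only in depth and in the genes set to change. It was not tested on differences in length slope or composition like those seen here.

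Symbols were matched for 32606 of 37289 genes (87.4%); chromosomes and start windows come from RefSeq (GRCm38.p6), and no window was found for Ntrk3. Bdnf is on chromosome 2 (ENSMUSG00000048482.7), Ntf3 on 6 (ENSMUSG00000049107.7), Ntrk2 on 13 (ENSMUSG00000055254.7), Ntrk3 on 7 (ENSMUSG00000059146.6) and Ngfr on 11 (ENSMUSG00000000120.6). The members are set by name, but they and the lists were chosen with earlier results of these data known. Named are the 5 members, transcripts of at least 0.5 TPM on average, pathway genes that were called or had the 2 smallest p-values of a comparison, and the 3 genes most like each member; the Bdnf transcripts, Creb1, Shc3, Ntf5, Sort1, Bex3, Plg, Mmp3 and the 2719-nt Ntrk2 transcript were named after their values were seen. Some genes that this rule names are not reported here. Replicates are separate mice per the labels, but litters are not stated. The p-values thus reflect how these animals vary, which may include shared litters.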

Additional observations from a re-analysis of the deposited data

How the results depend on the processing

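RLE size factors, no filter on low counts, DESeq2, fits on only the 2 groups compared, the replicate block and the length slope as covariate each called 0 members in every comparison. limma-voom with sample weights called 1 member (Bdnf) and 5 pathway genes for genotype in controls (among them Crtc1, Cadps2, Pcsk7 and Rtn4r). The slope covariate without both control replicates 1 called 1 member (Bdnf) in each of 3 comparisons, and 3 pathway genes for genotype in controls (Crtc1, Sorcs2 and Rtn4r), 1 for stress in het mice (Mef2c) and 1 for the interaction (Crtc1), among 194, 38 and 71 of 16040 genes called. Voom called 988 of 15955. The cause was not tested.

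Signs of log2 fold changes that missed the threshold turned as follows. Genotype in controls: Bdnf was -0.0048 without the filter, -2.44 with voom, -0.29 with the replicate block, -0.77 with the slope and -1.79 with the slope and 2 libraries fewer; Ntrk2 was 0.08 with voom. With voom, Ntrk2 was 0.10 for genotype in stressed mice, -0.03 and -0.005 for stress in wild-type and het mice, 0.02 for the interaction, 0.09 for the genotype average and -0.02 for the stress average. Voom also gave Ntrk3 0.08 (genotype average) and -0.01 (stress average), Bdnf -0.12 (het stressed against wild-type control) and -0.93 (genotype average), and Ngfr 0.26 (stress average). With the slope, and with the slope and 2 libraries fewer, Ntrk2 was -0.01 and -0.02 for stress in het mice and -0.06 and -0.02 for het stressed against wild-type control. Ntrk3 was -0.01 there with the slope; the genotype average with 2 libraries fewer was 0.0028 for Ntrk3 and -0.33 for Bdnf. With the replicate block, Ntrk3 was 0.03 for stress in het mice and Ntrk2 0.05 for the interaction. The Ntrk2 share by genotype was 0.257 from expected counts, and Ngfr by stress was -0.07 in log2 CPM.

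The labels do not say whether replicate numbers pair the samples. Correlations of same-numbered deviations ran between -0.256 and 0.674, with 9 of 18 over 0.1. Between the control groups they were 0.674 for replicates 1, -0.0398 for replicates 2 and 0.668 for replicates 3. Het control replicate 1 had -0.738 with wild-type control replicate 3. A factor shared by replicate number was not tested beyond the replicate block, which left the calls at 0.

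Leaving out 1 library at a time called 0 members, and these ranges crossed 0, save the Ntrk2 share by stress. Genotype in controls: Bdnf -1.74 to 0.88, Ntrk2 -0.28 to 0.11, Ntrk3 -0.12 to 0.26. Genotype in stressed mice: Ntrk2 -0.30 to 0.14, Ngfr -0.05 to 0.71. Stress in wild-type mice: Bdnf -0.91 to 0.78, Ntrk2 -0.13 to 0.36. Stress in het mice: Ntrk2 -0.07 to 0.31, Ntrk3 -0.21 to 0.18. Het stressed against wild-type control: Ntrk2 -0.14 to 0.23, Ntrk3 -0.07 to 0.21, Ngfr -0.96 to 0.02. Interaction: Bdnf -0.14 to 2.48, Ntrk2 -0.24 to 0.25. Genotype average: Bdnf -0.50 to 0.81, Ntrk2 -0.20 to 0.01, Ntrk3 -0.15 to 0.03. Stress average: Bdnf -0.13 to 1.14, Ntrk2 -0.0029 to 0.24, Ngfr -0.31 to 0.18. In percentage points, the shares ran from -1.51 to 1.23 (Ntrk2, genotype), 0.519 to 3.26 (Ntrk2, stress), -12.6 to 7.44 (Bdnf, genotype) and -13.7 to 6.32 (Bdnf, stress). In log2(TPM + 1), levels ran from -0.21 to 0.12 (Ntrk2, genotype), -0.15 to 0.15 (Ntrk3, genotype) and -0.18 to 0.29 (Ngfr, stress).

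With 3 mice a group, the wide intervals of Bdnf and Ngfr limit what can be seen, and Ntf3 at 1 to 13 counts allows no statement on change.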
